A study of Drosophila melanogaster with 4 samples.

Results

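The Wnt gene cluster of Drosophila melanogaster, Wnt4, wg (wingless), Wnt6 and Wnt10 on chromosome arm 2L, was examined for H3K27me3 in adult heads. Its members are the H3K27me3-enriched regions that touch 2L from 7210000 to 7390000 (FlyBase release 5), by at least 1 bp. There were 18 of them among 25702 regions in 3 lists, namely 3 of 4865 in replicate 1, 9 of 10330 in replicate 2 and 6 of 10507 in a list deposited for the whole series. The samples were 2 ChIP libraries and their 2 input libraries, made from head nuclei of wild-type Oregon-R flies (Oregon-R-modENCODE) at a stage labelled as mixed adult. ChIP used an Abcam antibody against H3K27me3, of lot 3, and no treatment or mutant was included. Nothing in the labels says whether the replicates are separate fly collections, and what varies between them may be technical.

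Wnt proteins are secreted, lipid-modified ligands that bind Frizzled receptors. In the canonical pathway they stabilise Armadillo, the fly beta-catenin, which then acts on target genes with the factor Pangolin. wg is best known for segment polarity in the embryo and for patterning the wing and other appendages, and genes like wg, Wnt6 and Wnt10 lie next to each other in many animals. H3K27me3, a trimethylated lysine of histone H3, is deposited by the Polycomb complex PRC2 over developmental genes that are kept silent, often across wide domains. Because whole heads hold many cell types, a region in a list does not tell which cells carry the mark. Neither expression nor any other histone mark was measured here.

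All 4 Wnt genes were found by symbol in a RefSeq gene table of release 6, which was used for names and order only. Along 2L the order was Ndae1 (an anion exchanger driven by sodium), CG43799, CG43800, CG13786, Wnt4, CG31909, wg, the long noncoding RNA CR45304, Wnt6, Wnt10, an antisense RNA (CR44063), ninaC (a myosin with a kinase domain, of photoreceptor cells), CG5149 and gudu (an Armadillo-repeat protein of spermatogenesis). Between Wnt4 and Wnt10 the table lists 6 genes with these 2 included, and CG31909 is the 1 protein-coding gene among them that is no Wnt gene. The regions are on release 5, and positions were not carried between releases. No region is therefore assigned to Wnt4, wg, Wnt6 or Wnt10 singly, and the values below run along the cluster from its Wnt4 side (low positions) to its Wnt10 side (high positions), taking the arm to be numbered in the same direction in both releases. These names of sides and blocks give an orientation only, not the position of a gene. That the interval holds the 4 genes on release 5 was taken as given and not checked.

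H3K27me3 at the cluster formed 2 wide blocks with a gap of about 5 kb between them, in each of the lists. The block on the Wnt4 side was 86.1 kb long, from 7258313 to 7344385, and the block on the Wnt10 side 34.7 kb, from 7349523 to 7384248 (outermost limits over the lists). Between these limits lay the bases 7344386 to 7349522, 5137 bp that no list covered. From the start of the first block to the end of the second, 126 kb in all, 95.6% was covered in replicate 1, 92.8% in replicate 2 and 95.6% in the whole-series list. No error from sequencing depth can be attached to these values, since the lists give no read numbers.

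In replicate 1 the block on the Wnt4 side was 1 region, of 85.9 kb at 7258324 to 7344263 with a score of 1.47. Scores are the authors' own, on a scale not given in the sources used here, and are compared only within a list. The block on the Wnt10 side was 1 region of 34.4 kb at 7349581 to 7383998 with a score of 1.93. The narrower of these 2 regions thus had the higher score. The 1 other member, of 2216 bp at 7389011 to 7391226 with a score of 0.90, crossed the right limit of the window and lay to 44.7% inside it.

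In replicate 2 the same first block was split into 5 regions with scores from 0.63 to 1.69. From the Wnt4 side onwards, a region of 11987 bp at 7259155 to 7271141 had a score of 0.88. The next, of 12.3 kb at 7271424 to 7283697, had a score of 1.28, and the third, of 42.1 kb at 7285944 to 7328028, one of 1.69. Each of these 3 pieces thus had a higher score than the one before it. A piece of 3653 bp at 7328186 to 7331838 followed with a score of 0.63, and the last, of 12.2 kb at 7332180 to 7344380, had 1.48. The block on the Wnt10 side remained whole in this list, with 34.7 kb at 7349557 to 7384220 and a score of 1.95, the highest in the window.

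The other 3 members of replicate 2 were narrow. A region of 1567 bp at 7229455 to 7231021 (score 0.35) and one of 1968 bp at 7255743 to 7257710 (score 0.61) lay before the first block and touched nothing in replicate 1. A region of 3894 bp at 7388509 to 7392402 (score 1.11) crossed the right limit of the window. The last of them lay over the region of replicate 1 that crossed the same limit, which it contained whole.

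The whole-series list held the first block as 2 regions and the second as 1. These were 27003 bp at 7258313 to 7285315 (score 1.04), 58.6 kb at 7285752 to 7344385 (score 1.61) and 34.7 kb at 7349523 to 7384248 (score 1.93). The score was thus higher from each of these 3 wide regions to the next, going towards the Wnt10 side. Its other members were 1840 bp at 7251513 to 7253352 (score 0.32), 1116 bp at 7256402 to 7257517 (score 0.32) and 4006 bp at 7388497 to 7392502 (score 0.88). The first of these touched neither replicate. As a list for the series that includes both replicates, it gives no separate support.

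The second block had the higher score in each list, weighted by length where a block had several pieces. In replicate 1 the score was 1.47 in the first and 1.93 in the second block, a difference of 0.47. It was 1.43 and 1.95 in replicate 2, a difference of 0.52. In the whole-series list it was 1.43 and 1.93, a difference of 0.51. With 2 replicates on scales that may differ, no test was run, and the blocks were set apart after the data were seen.

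Within each list, the 2 widest regions of the cluster ranked high by width and by score, and at the top by neither. The 85.9 kb region was rank 37 of 4865 by width and rank 200 by score in replicate 1, and the 34.4 kb region was rank 144 by width and rank 82 by score. In replicate 2 the 42.1 kb region was rank 55 of 10330 by width and rank 281 by score, and the 34.7 kb region was rank 78 and rank 136. Among regions of at least 30 kb, the block on the Wnt10 side had a score rank of 60 of 172 in replicate 1 and of 49 of 104 in replicate 2, where the median scores were 1.74 and 1.93. The widest region of the first block had rank 120 of 172 and rank 79 of 104. In both replicates the second block was thus above the median score of wide regions, by 0.02 in replicate 2, and the widest region of the first block was below it. In the whole-series list the ranks were 51 and 93 of 209, both above the median score of 1.55.

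**Figure D1:**
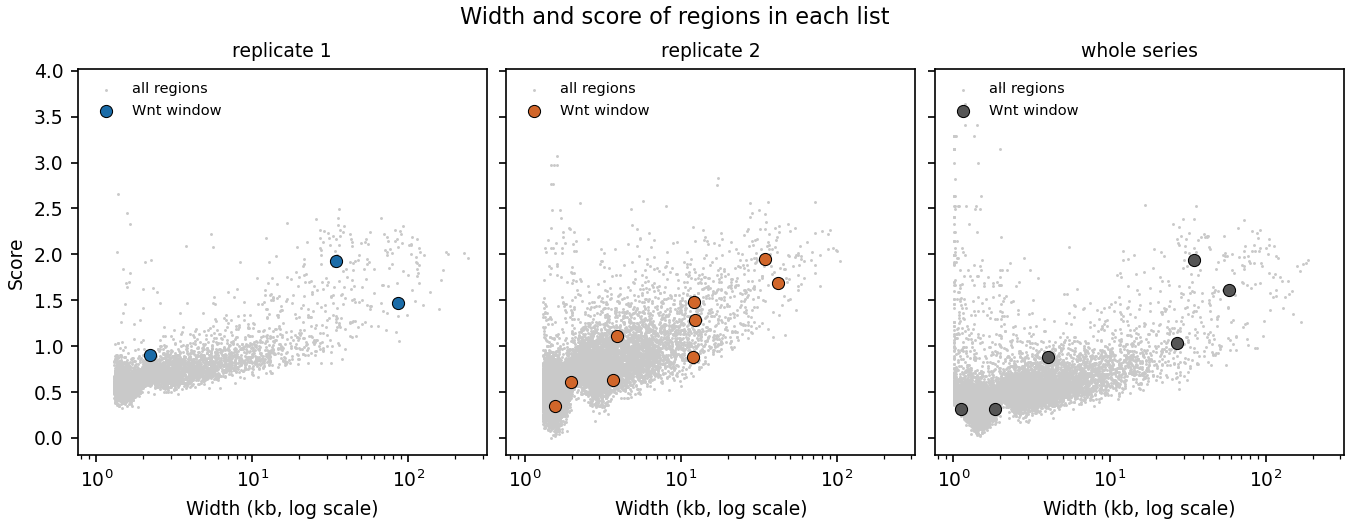
Width (x axis, kb, log scale) and score (y axis, the authors' scale) of all regions of each list (grey) and of those touching the Wnt window (coloured). The wide regions of the cluster lie inside the range of other regions of like width, and the region of 34.4 kb to 34.7 kb has the highest score of the cluster in each list.

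The limits of the blocks were close to one another in the replicates, except at the Wnt4 side. The gap between the blocks began 117 bp apart and ended 24 bp apart in the replicates. The end of the second block differed by 222 bp. The start of the first block differed by 831 bp, at 7258324 in replicate 1 and 7259155 in replicate 2. There replicate 2 had a separate region of 1968 bp ahead of the block, after a break of 1444 bp that replicate 1 covered to 57.5%.

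Breaks inside the first block were seen in replicate 2 but not in replicate 1. There were 4 of them, of 282 bp, 2246 bp, 157 bp and 341 bp, each covered whole in replicate 1. The widest, at 7283698 to 7285943, was covered to 80.6% in the whole-series list, which had a break of 436 bp there, at 7285316 to 7285751. The other 3 breaks were covered whole in the whole-series list. The number of pieces in the first block thus differed between the replicates through breaks of at most 2246 bp.

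The gap between the blocks was picked as the longest stretch between the wide regions that no list covered. That both replicates lack regions there, unlike at these breaks, follows from this choice and is no result. The gap measured 5317 bp in replicate 1, where replicate 2 covered 2.65% of it, and 5176 bp in replicate 2, where replicate 1 covered none of it. On the 5 major arms, replicate 1 had 34 gaps of 3 to 8 kb between neighbouring regions of at least 10 kb, and 64.7% of them were covered to at most 5% in replicate 2. Of 15 such gaps in replicate 2, 60.0% were covered to at most 5% in replicate 1. A gap that recurs in the other replicate is therefore not particular to the Wnt cluster. Whether reads can be mapped uniquely in the gap was not analysed here.

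H3K27me3 covered a like share of the window in both replicates, and the same bases. The covered share of 2L from 7210000 to 7390000 was 67.4% in replicate 1 and 67.7% in replicate 2 (mean 67.6% ± 0.213, SD, n = 2), and 69.3% in the whole-series list. In common they covered 117491 bp, or 96.8% of what replicate 1 covered in the window and 96.4% of what replicate 2 did. All of these bases were also in the whole-series list. The Jaccard index (length common to the 2 replicates as a share of their union) was 93.4%.

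On the rest of 2L the replicates were less alike. The index there was 55.0%, and replicate 2 covered 1.29 times the length of replicate 1, against 1.00 times in the window. The window is not alone in this among densely marked stretches. When the major arms were divided into stretches of the window's width, 94 had at least 50% covered in each replicate. Their index had a median of 83.2% (lowest 53.2%, highest 98.7%), and 15 of the 94 were at least as high as the window. These stretches had a median of 9 regions in replicate 1 (range 1 to 30) and 16 in replicate 2 (range 4 to 39). The Wnt window had 3 and 9, inside both ranges.

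Few bases were covered in 1 replicate only. Those of replicate 1 lay at the start and in the breaks of the first block, and those of replicate 2 mostly in its 2 narrow regions before that block. Replicate 1 alone covered 3857 bp in 5 stretches, the longest being the break of 2246 bp. Replicate 2 alone covered 4400 bp in 6 stretches, the longest being the narrow region of 1968 bp ahead of the first block. The whole-series list added 1930 bp that neither replicate held. Neither replicate covered 54253 bp, 30.1% of the window, most of it in the part before the first block.

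Most of the uncovered part of the window lay at its Wnt4-side end, before the first block. Whether Wnt4 or any part of it lies there was not analysed here. No list covered 7210000 to 7229454 (19.5 kb) or 7231022 to 7251512 (20.5 kb). In replicate 1 the last region before the first block ended at 7162265, and 96.1 kb without a region lay between them. In replicate 2 the stretch from 7170073 to 7229454, 59.4 kb, held no region. Before the first block there were thus no regions of the window in replicate 1, and narrow ones in replicate 2 and the whole-series list. At the Wnt10 side a second gap of 5012 bp in replicate 1 and 4288 bp in replicate 2 followed the block, and then came the narrow region across the right limit.

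Both flanks, each of the window's width, were covered far less than the window. The left flank, 7029999 to 7209999, was covered to 7.90% in replicate 1 and 16.7% in replicate 2 (mean 12.3% ± 6.21, SD, n = 2), and to 27.6% in the whole-series list. The right flank, 7390001 to 7570001, was covered to 3.60% and 5.73% (mean 4.66% ± 1.51, SD, n = 2), and to 9.10% in the whole-series list. Within each library the window was above the mean of its flanks, by 61.7 points of percent for replicate 1 and by 56.5 for replicate 2 (mean 59.1 ± 3.65, SD, n = 2). It exceeded the whole arm, of which 25.9% and 33.3% was covered, by 41.5 and 34.4 points. Both mean differences are larger than the SD between the replicates. The smallest p of an exact sign-flip permutation test on 2 differences is 0.5, and it was not made; the window was chosen with its coverage known.

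**Figure D2:**
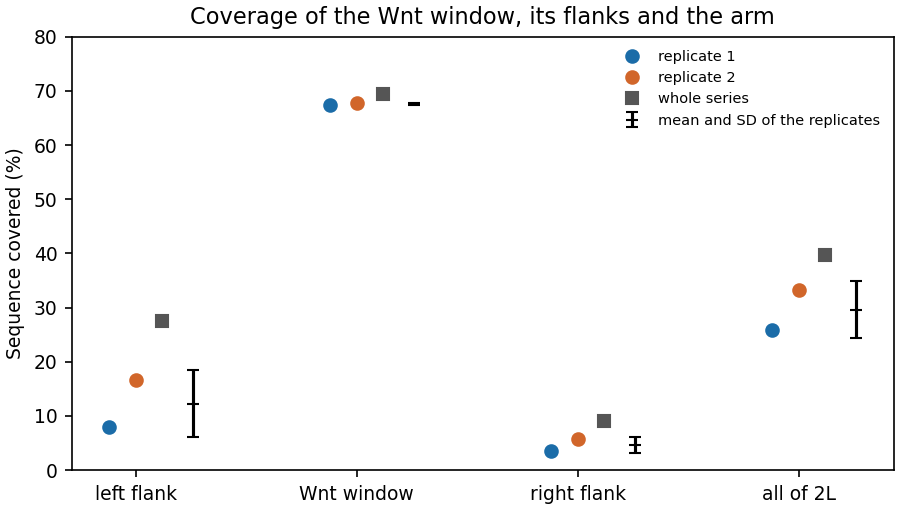
Share of sequence covered by H3K27me3 regions (y axis, percent) in the left flank, the Wnt window, the right flank and the whole of 2L, 1 point per list, with the mean and SD of the 2 replicates in black. The Wnt window lies between 67.4% and 69.3% in the lists, above both flanks and the arm. Its replicates are closest to each other in the lists as given, but not once replicate 2 is cut to the length of replicate 1. Nor are they closest there with regions limited by score or width, or with regions under 5000 bp apart joined.

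Flank regions were narrow and low in score next to the wide regions of the cluster. The left flank held 6 regions in replicate 1 with scores from 0.54 to 0.74, and 13 in replicate 2 with scores from 0.26 to 0.84. Its widest were 4791 bp (replicate 1) and 5566 bp (replicate 2). Of the 9 window members of replicate 2, 3 scored below 0.84, namely the narrow pair before the first block (0.35 and 0.61) and the piece of 3653 bp (0.63). All 3 members of replicate 1 scored above 0.74. In the whole-series list the left flank held 23 regions of up to 6573 bp, with scores up to 0.71 and a median of 0.43. The narrow pair before the first block scored 0.32 there, below that median. In the right flank, replicate 1 had no region from 7391227 to 7536663, a stretch of 145 kb. There replicate 2 had the end of its region across the window's right limit and 3 further regions, of 1316 bp, 1322 bp and 1411 bp with scores from 0.40 to 0.47.

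The replicates shared little in the flanks. The Jaccard index was 19.3% in the left and 13.1% in the right flank, against the 93.4% of the window. No stretches as sparsely covered as the flanks were compared, so whether such an index is usual at low coverage was not tested. In the left flank the common part made up 50.3% of replicate 1 and 23.8% of replicate 2. In the right flank these shares were 30.1% and 18.9%. Replicate 2 alone covered 22881 bp of the left and 8365 bp of the right flank, and replicate 1 alone 7065 bp and 4521 bp.

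In bins of 10 kb the window was covered further than either flank. Of the 18 bins of the window, 11 (61.1%) were at least 50% covered in replicate 1, where 22.3% of all bins of the 5 major arms were. In replicate 2 there were 12 (66.7%), with 31.3% of all bins, and in the whole-series list 12 (66.7%), with 36.5% of all bins. In the left flank 0 of 18 bins passed in replicate 1, 1 in replicate 2 and 6 in the whole-series list, and in the right flank none did in any of the 3. The window was thus above the share of the arms in each list and both flanks were below it. The left flank came closest to that share in the whole-series list, with 33.3% of its bins.

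At the Wnt4 side, 1 partly covered bin separated an empty from a full one in each list. Regions in a list have hard edges, so this does not show how steeply the mark itself changes. The bin at 7240000 to 7249999 was at 0% in each list, and the next, 7250000 to 7259999, at 16.8% in replicate 1, 28.1% in replicate 2 and 46.4% in the list of the series. The bin at 7260000 to 7269999 was full in all of them. From there to 7339999 every bin was full in replicate 1 and at least 77.5% covered in replicate 2, the lowest being the bin of the widest break. The bin of the shared gap, 7340000 to 7349999, was at 46.8%, 48.2% and 48.6%. The 3 bins after it were full in each list, and the last, 7380000 to 7389999, was at 49.9%, 57.1% and 57.5%. That last bin is the 1 by which the counts of the replicates differ, and it lies next to the limit of 50% in replicate 1.

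**Figure D3:**
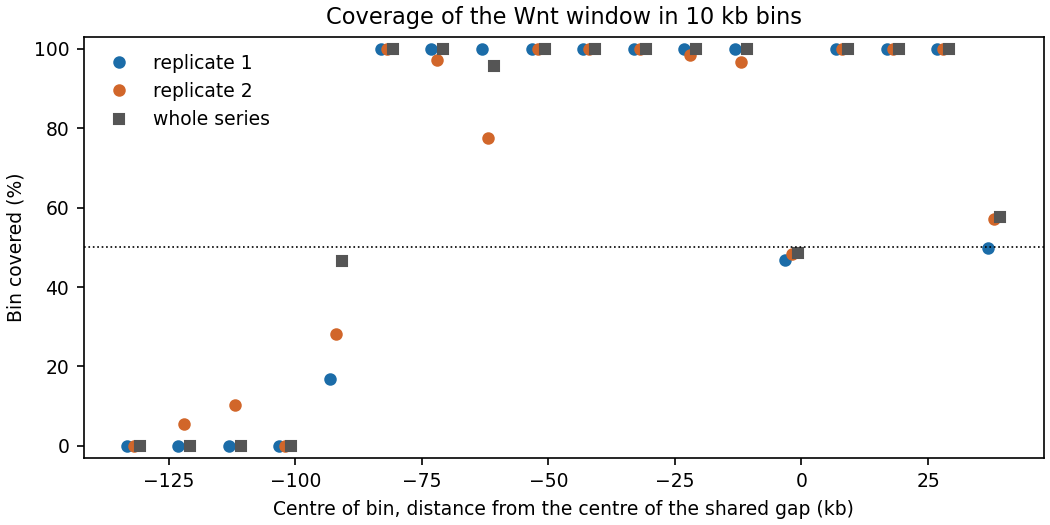
Share of each 10 kb bin of the Wnt window covered by regions (y axis, percent) against the bin's distance from the centre of the shared gap (x axis, kb), 1 point per list, shifted slightly sideways. The dotted line marks 50%. The first 4 bins on the left are at most 10.2% covered, those inside the blocks are full in replicate 1 and at least 77.5% covered in replicate 2, and the bin of the gap is at 46.8% to 48.6%.

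Set beside the genome, a window so far covered was uncommon but not rare. Of 659 stretches of the same width on the 5 major arms, 44 (6.68%) were covered at least as far as the Wnt window in replicate 1. In replicate 2 there were 54 (8.19%), and in the whole-series list 83 (12.6%). The stretches were laid end to end from the start of each arm, so the cluster itself is cut by their borders. The window's limits were also set around the cluster, which favours it in this comparison.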

How the data were processed

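H3K27me3 ChIP-seq regions were given as 1 list per ChIP library and 1 for the series, on FlyBase release 5 per the file headers. The submitters' processing notes name Bowtie 0.12.7 as a tool, without its settings. No source used here gives the caller, its threshold or the origin of the whole-series list (pooled reads or merged calls). The score of a region is as deposited, on a scale that no header or label explains. The inputs have no list, and whether the authors' calling used them is not given either. A list hides signal under its threshold and grows with depth, which is unknown here, so no interval or floor is given.

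The interval, the blocks and all comparisons were chosen with earlier results of these data known. Positions are 1-based. In replicate 2, 1 region marked as depleted was left out. Covered length, shared length, gaps and scores were taken with Python 3.11.15, numpy 2.4.6 and pandas 2.3.3, and figures with matplotlib 3.10.9. Covered length, joining and bins were tested on simulated data and came out exact in 20 of 20 lists. Flanks had the width of the window, 180001 bp. Named genes were those of the interval and their neighbours by order; regions of at least 5 kb were described singly, and here all members were. Coverage by gene was planned and not run, since the gene table was of another release. Promoter and protein sequences were not used here. No test was run: with 2 libraries of 1 condition, an exact sign-flip test of window against flanks cannot give a p below 0.5. Alternatives were score limits, minimum width, joining, list length, flank width, bins and each replicate alone.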

Additional observations from a re-analysis of the deposited data

How the results depend on the processing

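The direction of the window against its flanks held under every alternative run, with a mean difference of 56.0 to 61.8 percentage points. In single replicates it ran from 52.2 (replicate 2, wider flanks) to 64.5 points (replicate 1, by score). Window coverage, whose SD of 0.213 is small, moved to 65.6% with scores at or above the list median and with equal lists, 66.6% with regions of at least 2000 bp, 67.8% with joining under 1000 bp and 70.0% with joining under 5000 bp. The share covered in both replicates, 65.3%, was 63.2% with either of the first 2 limits, 65.7% joined at 1000 bp and 67.4% joined at 5000 bp. The mean number of regions, 6, fell to 3 joined at 5000 bp, and the cause is the joining itself. Both replicates then had 3, but not the same 3. Replicate 1 kept its members apart, with gaps of 5317 bp and 5012 bp. In replicate 2 the second block was joined across 4288 bp to the region at the right limit. The narrow region at 7229455 to 7231021 stayed separate there. The window was then covered to 67.4% in replicate 1 and 72.6% in replicate 2. The left flank, 12.3%, went to 19.5% joined at 5000 bp but to 6.84% by score, 7.45% by width and 6.99% with equal lists. The right flank fell to 1.01% by score, 2.19% by width and 2.46% with equal lists. With equal lists the window was covered to 67.4% and 63.7%, an SD of 2.61, against 1.28 in the left and 1.60 in the right flank. By score these SDs were 2.61, 2.39 and 0.462. With either limit the replicates were thus closer in both flanks than in the window. With regions of at least 2000 bp the SDs were 1.175, 3.25 and 0.473, and joined at 5000 bp they were 3.65, 10.85 and 0.473. In these settings the replicates were closer in the right flank than in the window, and less close in the left. Joined at 1000 bp they stayed closest in the window, with SDs of 0.520, 6.50 and 1.30. Bins are of another number by construction, 24.5 at 5 kb and 7 at 20 kb against 11.5. Leaving out 1 replicate gave 67.4% to 67.7% for the window, 3 to 9 regions (3 without replicate 2), 7.90% to 16.7% and 3.60% to 5.73% for the flanks, and differences of 56.5 to 61.7 points. No paired analysis was possible because no list of the input libraries was used here, so ChIP and input of the same number could not be compared. Window and flanks were compared within each ChIP library. Coverage by gene was not run.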
